A study of Mus musculus with 3 samples.

Results

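The GFI1 family and its corepressors were followed as 8 genes, chosen by symbol: Gfi1b, the gene that hosts the reporter of the mice studied, its paralogue Gfi1, and 6 genes of the corepressor complex, Kdm1a, Rcor1, Rcor3, Hdac1, Hdac2 and Hmg20b. They are 8 of 32285 genes counted. The cells sequenced were lymphocytes from the lungs of GFI1B-GFP reporter mice, in which green fluorescence reports use of Gfi1b. All passed a gate for innate lymphoid cells (ILC), live CD45+ CD90.2+ IL-7R+ with no lineage marker, and were read as single cells with a 10x Chromium kit that reads the 3′ ends of transcripts. Every group came from these mice, and each of the 3 groups is 1 library. The IL-18R+ pool mixes 2 sorts, one IL-18R+ CD103+ GFP- and the other IL-18R+ CD103- GFP+, and its cells were not assigned to either. The second library is labelled IL-18R- CD103- GFP-. The last library is the IL-18R- ST2+ sort, ST2 being the receptor for interleukin 33. Mouse age and number, any treatment, the structure of the reporter allele and the lineage antibodies are not stated in the labels or the other sources used. The series asks, by its title, how GFI1B bears on multipotent ILC that reside in the lung.

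GFI1 and GFI1B are zinc finger proteins that bind DNA through a core AATC and silence genes through a short amino-terminal SNAG domain. That domain recruits LSD1, the histone demethylase encoded by Kdm1a, together with the CoREST scaffolds encoded by Rcor1 and Rcor3, the histone deacetylases HDAC1 and HDAC2 and the HMG box protein HMG20B. GFI1B is best known from red cell and platelet precursors, GFI1 from neutrophils, T cells and group 2 ILC (ILC2), and the paralogues can repress each other's genes.

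The start regions of the paralogues are shown because one gave no count and the other was counted in every library. Each sequence is the stretch from 250 bases before to 50 bases after the annotated start in RefSeq, build GRCm38.p6, minus strand, written 5′ to 3′. Capitals mark AATC and GATT, the core and its reverse complement.
Gfi1 (chr5:107725756-107726055): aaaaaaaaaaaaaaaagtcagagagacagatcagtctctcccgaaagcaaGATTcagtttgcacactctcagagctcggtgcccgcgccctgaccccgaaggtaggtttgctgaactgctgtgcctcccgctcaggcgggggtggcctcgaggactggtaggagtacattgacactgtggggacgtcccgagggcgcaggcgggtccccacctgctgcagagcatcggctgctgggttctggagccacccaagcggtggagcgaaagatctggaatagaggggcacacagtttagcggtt
Gfi1b (chr2:28621933-28622232): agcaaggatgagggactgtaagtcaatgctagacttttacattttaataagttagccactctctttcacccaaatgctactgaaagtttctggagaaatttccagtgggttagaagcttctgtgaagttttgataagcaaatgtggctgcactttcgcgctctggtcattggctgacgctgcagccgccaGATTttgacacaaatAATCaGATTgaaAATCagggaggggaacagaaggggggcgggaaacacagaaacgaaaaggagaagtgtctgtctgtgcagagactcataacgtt
The Gfi1 stretch held 1 match and the Gfi1b stretch 4 matches, of which 2 were AATC and 2 GATT, with no overlap between them. At least 1 match was found in 73.1% of the 32851 start regions in the table and at least 4 in 10.1%. A letter match in such a window is a description and shows no binding. Of the 8 genes, 7 had a start region in the table, and Gfi1 had a further start with 0 matches.

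Per the GENCODE M21 annotation of GRCm38, Gfi1 lies on chromosome 5 from 107716657 to 107726036 and Gfi1b on chromosome 2 from 28609450 to 28621982, both on the minus strand with up to 7 exons in a transcript. Kdm1a lies on chromosome 4 from 136550540 to 136602723 and Hdac1 on chromosome 4 from 129516104 to 129542713, both on the minus strand. Rcor1 is on chromosome 12 (111039351 to 111115901, plus strand), Rcor3 on chromosome 1 (192098546 to 192138062, minus strand), Hdac2 on chromosome 10 (36974544 to 37001889, plus strand) and Hmg20b on chromosome 10 (81346048 to 81350480, minus strand). Gfi1, Kdm1a and Rcor3 are each crossed by a counted gene on the opposite strand. A430072P03Rik crosses Gfi1 and had 21, 10 and 51 UMIs in the pool, the IL-18R- CD103- GFP- labelled library and the IL-18R- ST2+ library. Luzp1 crosses Kdm1a, and Gm26879 and Gm10516 cross Rcor3. A unique molecular identifier (UMI) is 1 counted transcript molecule. The strand setting of the counting is not given, so reads of such pairs may not have been kept apart.

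After filtering, 5164 of 5351 barcodes were kept: 1659 in the pool, 1883 in the IL-18R- CD103- GFP- labelled library and 1622 in the IL-18R- ST2+ library, with 9000301, 9705864 and 7966923 UMIs and medians of 4932, 4772 and 4568 UMIs a cell. The pool shared 1 barcode sequence with the IL-18R- CD103- GFP- labelled library, and no other pair of libraries shared any. Levels are UMIs per 1000000 summed UMIs (UPM), with 95% intervals for counting error only. Since each group is 1 library, differences have no replicate check and none was tested. A gene is called higher when its summed level is at least 2 times that of the other side, with at least 20 UPM on the higher side. The transcripts that match the sort went against 1 label, since Il18r1 stood at 663 UPM in the pool, 591 in the IL-18R- CD103- GFP- labelled library and 16.1 in the IL-18R- ST2+ library. Il1rl1, which encodes ST2, stood at 4.89, 5.46 and 868 UPM. The labelled cell type was checked by markers: T cell receptor transcripts marked most cells of the first and second libraries, with 853 and 1421 γδ T-like cells and 210 and 102 αβ T-like cells, although the sort was lineage negative. ILC2-like cells made up 1387 of 1622 cells of the IL-18R- ST2+ library.

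Gfi1b had 0 UMIs in every barcode of the 3 libraries, kept or not, the pool with its GFP+ sort included. A count of 0 allows 0.333 UPM in the pool, 0.309 in the IL-18R- CD103- GFP- labelled library and 0.377 in the IL-18R- ST2+ library, taken as 3 UMIs of each total. It allows a share of cells with a Gfi1b UMI of up to 0.181%, 0.159% and 0.185%. These limits cover counting error only. The genes on either side of it in the annotation were counted in all 3 libraries. Gtf3c5, a subunit gene of a factor for RNA polymerase III, lies 25699 bases away and stood at 7.11, 10.3 and 6.15 UPM in the order above. Tsc1, which encodes hamartin, a brake on growth signalling, lies 19246 bases away and stood at 14.4, 15.9 and 14.6 UPM. No feature of the files is named for GFP. Whether the reporter allele still yields the counted 3′ end of Gfi1b was not tested, so the counts check neither the gene nor the GFP label.

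Among the kept cells, the lineages in which GFI1B is best known left few transcripts outside the haemoglobin genes. Of the 4 mast cell and basophil markers, Mcpt8, Fcer1a and Ms4a2 were at 0 in all libraries, and Cpa3 had 10, 3 and 21 UMIs. Of the 8 platelet and erythroid markers, 7, 4 and 5 had a UMI, and they summed to 7.78, 1.34 and 1134 UPM. Ppbp was at 0 in every library and Gata1, an erythroid factor, had 1, 0 and 5 UMIs. Nearly all of the sum in the IL-18R- ST2+ library came from the haemoglobin genes Hba-a1 and Hbb-bs, with 9025 UMIs in 374 cells, of which 8409 were in 1 cell. The pool and the IL-18R- CD103- GFP- labelled library kept 52 and 9 UMIs of these genes. Over all barcodes, kept or not, they had 88510, 5851 and 44976 UMIs in the 3 libraries, with up to 10072, 5842 and 10262 in 1 barcode. Most haemoglobin UMIs were thus in barcodes that the filter removed, and these too had 0 Gfi1b UMIs.

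Gfi1, the paralogue, was counted in every library and was higher in the IL-18R- ST2+ library than in the others. Its level was 9.33 UPM in the pool (7.44 to 11.6; 84 UMIs), 11.6 in the IL-18R- CD103- GFP- labelled library (9.60 to 14.0; 113 UMIs) and 28.1 in the IL-18R- ST2+ library (24.6 to 32.1; 224 UMIs). The interval of the IL-18R- ST2+ library lay above those of the other two, which overlapped. The ratio of the IL-18R- ST2+ library to the pool was 3.01 (2.33 to 3.92). To the IL-18R- CD103- GFP- labelled library it was 2.41 (1.92 to 3.06). Both comparisons use the same IL-18R- ST2+ library. Of all genes measured, 16.7% were called against the pool in either direction and 4.34% as higher in the IL-18R- ST2+ library, and the same shares against the IL-18R- CD103- GFP- labelled library were 15% and 5.4%. A ratio at least as far from 1 as that of Gfi1 was found in 8.84% and 10.7% of measured genes. Between the pool and the IL-18R- CD103- GFP- labelled library the ratio was 0.802 (0.597 to 1.07), under the level needed for a call. There, 3.34% of measured genes and 0 of the 5 members measured were called. Without the cells that had a haemoglobin UMI, a setting added after the values were seen, Gfi1 stood at 9.55, 11.7 and 28.1 UPM.

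**Figure D1:**
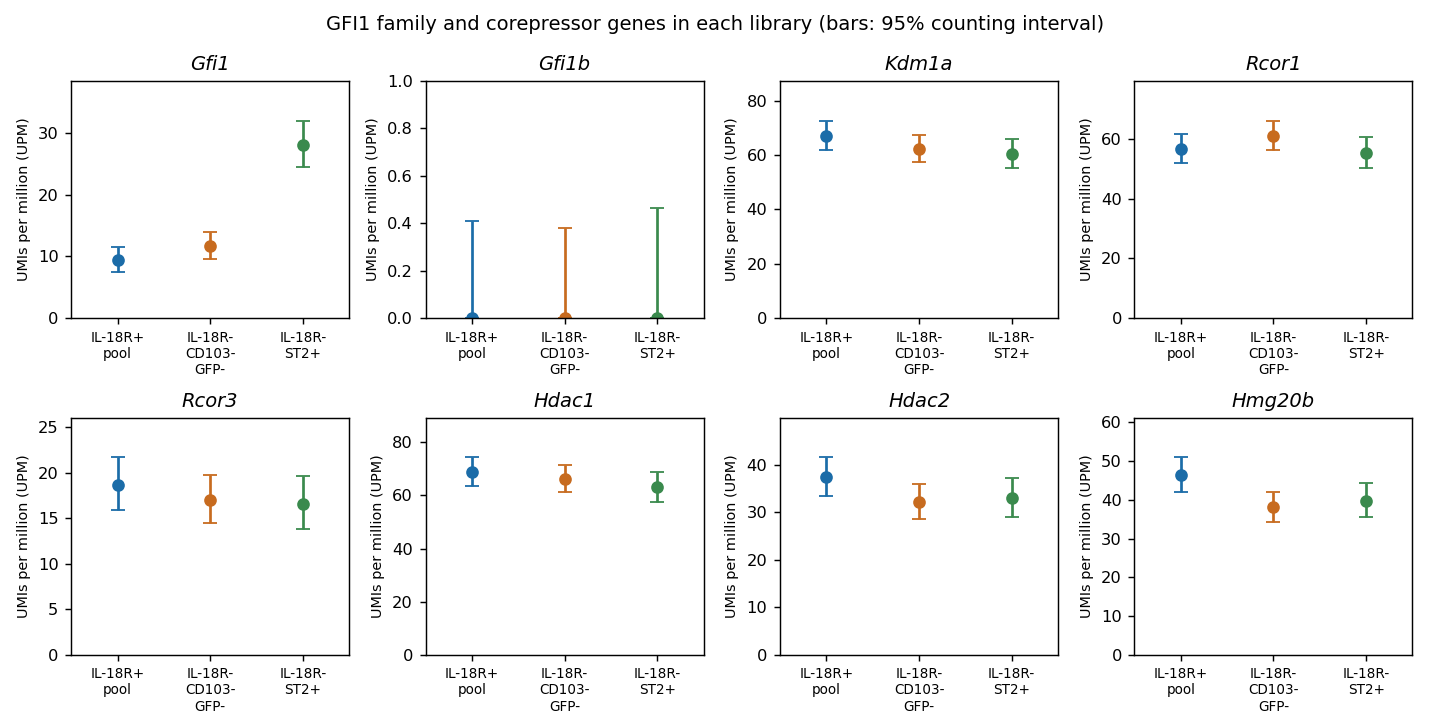
Level of each gene in the 3 libraries in UMIs per 1000000 (UPM), 1 point a library, with 95% counting intervals and an axis from 0 in each panel. Gfi1 stands at 28.1 UPM in the IL-18R- ST2+ library against 9.33 and 11.6, Gfi1b is at 0 throughout, and the 6 corepressor genes differ little between libraries.

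Gates on marker transcripts, none of them a member, showed where Gfi1 was counted. ILC2-like cells of the IL-18R- ST2+ library, which lack Cd3e and carry Il1rl1, Il5, Il13 or Klrg1, had 28.6 UPM of Gfi1 (24.7 to 32.9; 196 UMIs), with a UMI in 11.5% of 1387 cells. The γδ T-like cells had 11.7 UPM in the pool (8.60 to 15.5; 48 UMIs; 4.69% of 853 cells) and 10.6 UPM in the IL-18R- CD103- GFP- labelled library (8.31 to 13.2; 76 UMIs; 4.5% of 1421 cells). The ILC2-like level was thus above both γδ levels, whose intervals overlapped almost fully. Its ratio to them was 2.45 (1.78 to 3.43) and 2.71 (2.07 to 3.58), where 18.1% and 17% of measured genes were called in either direction and 5.8% and 6.01% as higher in ILC2-like cells. Library and lineage cannot be told apart in these ratios, since 12 γδ T-like cells were found in the IL-18R- ST2+ library. With cells thinned to 2000 UMIs the share with a Gfi1 UMI was 5.01% of ILC2-like cells and 2.00% and 2.20% of γδ T-like cells.

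ILC2-like cells of the pool gave no Gfi1 UMI and differed from those of the IL-18R- ST2+ library in marker transcripts. They had 0 UMIs in 32 cells, which allows 11.7 UPM when taken as 3 UMIs of their total. The exact Poisson interval reaches 14.4 UPM. ILC2-like cells of the IL-18R- ST2+ library stood at 28.6 UPM (24.7 to 32.9), an interval above these limits. That level was 2.44 times the 11.7 UPM, which is no lower bound of the ratio because it leaves out the interval of the level. Il1rl1 stood at 117 UPM in ILC2-like cells of the pool against 942 in those of the IL-18R- ST2+ library. Ccr10, a chemokine receptor gene, stood at 403 against 0.146 UPM. As for the IL-18R- CD103- GFP- labelled library, 15 ILC2-like cells held 4 Gfi1 UMIs, with Il1rl1 at 525 UPM.

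Innate cells outside the ILC2 gate carried Gfi1 too. Cells without Cd3e and with Tcf7, Zbtb16 or Il18r1, 3 genes used by ILC progenitors and other lymphocytes, had 16.4 UPM in the pool (9.85 to 25.6; 19 UMIs in 181 cells) and 24.9 UPM in the IL-18R- CD103- GFP- labelled library (13.9 to 41.0; 15 UMIs in 123 cells). They are given no cell type name, since Gata3, Kit and, in the pool, Ccr10 were also present. These intervals overlap each other and that of the IL-18R- ST2+ ILC2-like cells. Against γδ T-like cells of the same library the ratio was 1.40 (0.779 to 2.43) for the pool. The other library gave 2.36 (1.26 to 4.14), which was called, beside 10.1% of measured genes in either direction and 6.55% as higher. All innate gates together, the ILC2 gate included, stood at 12.1 UPM in the pool, close to the γδ T-like cells there. The ratio was 1.04 (0.589 to 1.76; 13.7% of genes called). Within the IL-18R- CD103- GFP- labelled library all innate gates stood at 22.9 UPM against 10.6. That ratio was 2.17 (1.29 to 3.53; 9.39% of genes called, 6.27% as higher in innate cells), and Gfi1 was the 1 member called there. Of the 22 Gfi1 UMIs of these innate cells, 4 were in 15 ILC2-like cells and 0 in 23 ILC3-like cells. The ratio without the ILC2 gate was not computed. The difference between the 2 libraries in the ratio of all innate gates was not tested.

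Gfi1 gave few UMIs in αβ T-like cells, and lay below γδ T-like cells beyond counting error only in the pool. The pool had 4 UMIs in 210 cells, 3.27 UPM (0.890 to 8.36), and the IL-18R- CD103- GFP- labelled library 6 UMIs in 102 cells, 8.93 UPM (3.28 to 19.4). In the pool γδ T-like cells stood 3.57 times higher (1.31 to 13.6), below the 20 UPM needed for a call. There 0 of the 6 members measured were called, beside 5.62% of all measured genes. In the other library the ratio of γδ to αβ T-like cells in Gfi1 was 1.18 (0.518 to 3.32). Innate cells there stood 2.56 times above αβ T-like cells in Gfi1 (1.01 to 7.73) and 2.51 times in Rcor1 (1.45 to 4.58), both called, beside 19.1% of measured genes in either direction and 14.8% as higher in innate cells. In the pool innate cells stood 3.69 times above αβ T-like cells in Gfi1 (1.25 to 14.8), below the level needed. Of the 5 members measured in that comparison 0 were called, beside 11.4% of all measured genes. The stromal marker gate of the pool took cells with at least 3 UMIs of genes of stroma, endothelium and epithelium, Sftpc left out. Its 89 cells gave 2 Gfi1 UMIs, 3.61 UPM (0.437 to 13). That gate also held lymphoid transcripts, with Il7r at 754 UPM, Il18r1 at 408, Kit at 350 and Tcf7 at 310, so it cannot be taken as a class that lacks Gfi1 and sets no background. The share of cells with a Gfi1 UMI was 1.91% of αβ T-like cells of the pool (0.521% to 4.805%; median 5575 UMIs), 4.69% of its γδ T-like cells (3.37% to 6.33%; median 4707 UMIs) and 11.5% of ILC2-like cells of the IL-18R- ST2+ library (9.83% to 13.3%; median 4619 UMIs). At full depth the IL-18R- CD103- GFP- labelled library gave the other order for T-like cells, with intervals that overlapped. There the share was 5.88% of αβ T-like cells (2.19% to 12.4%; median 6221 UMIs) and 4.5% of γδ T-like cells (3.486% to 5.715%; median 4721 UMIs). Thinned to 2000 UMIs a cell, γδ T-like cells had the higher share in both libraries, with intervals that overlapped. These shares were 0.980% of αβ (0.0248% to 5.34%) and 2.2% of γδ T-like cells (1.5% to 3.11%) in the IL-18R- CD103- GFP- labelled library. The pool gave 0% of αβ (0% to 1.75%) and 2.00% of γδ T-like cells (1.17% to 3.18%). Free RNA can give UMIs in cells without the gene, and its part in the lower shares was not tested.

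**Figure D2:**
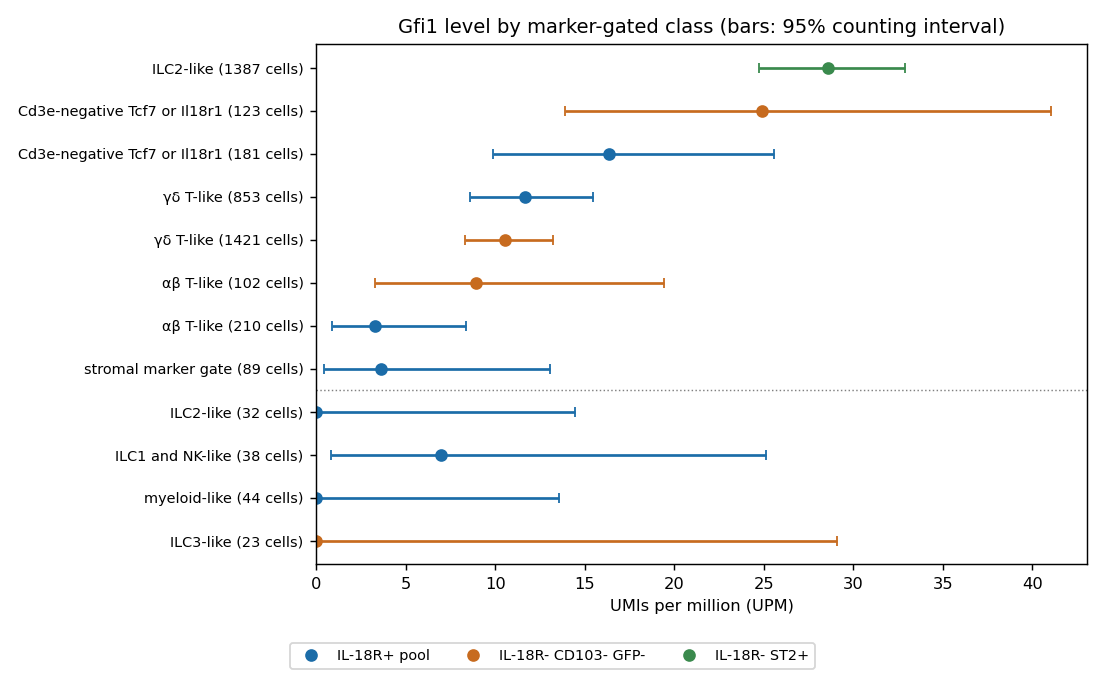
Level of Gfi1 in UPM by marker-gated class, coloured by library, with the number of cells in brackets and 95% counting intervals. The 8 sums above the dotted line have at least 50 cells, run from 28.6 UPM in ILC2-like cells of the IL-18R- ST2+ library to 3.27 UPM in αβ T-like cells of the pool, and those below it are smaller gates with wide intervals.

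Gfi1 was no higher in ILC2-like cells that carried their effector cytokine transcripts. ILC2-like cells of the IL-18R- ST2+ library with a UMI of Il5 or Il13 had 29.1 UPM (475 cells) and those without 28.3 UPM (912 cells). The ratio was 1.03 (0.763 to 1.38), where 0.411% of measured genes and 0 of the 6 members measured were called. The γδ T-like cells with type 17 transcripts (at least 2 UMIs of Il17a, Il17f, Il23r, Ccr6 and Cd163l1) did not differ beyond counting error from the others either. The pool gave a ratio of 1.09 (0.396 to 4.17). The IL-18R- CD103- GFP- labelled library gave 1.33 (0.778 to 2.36).

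The 2 genes that flank Gfi1 did not share its order over the libraries throughout. Evi5, a regulator of membrane traffic 18759 bases away, stood at 8.33, 4.74 and 17.8 UPM in the pool, the IL-18R- CD103- GFP- labelled library and the IL-18R- ST2+ library. It was highest in the IL-18R- ST2+ library, as Gfi1 was. Rpap2, an RNA polymerase II phosphatase gene 54819 bases away, stood at 9.89, 10.2 and 7.91 UPM.

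The corepressor genes were counted in every library at levels that differed little. Kdm1a, the LSD1 demethylase, stood at 67.1 UPM in the pool (61.9 to 72.7), 62.3 in the IL-18R- CD103- GFP- labelled library (57.5 to 67.5) and 60.4 in the IL-18R- ST2+ library (55.1 to 66.0). Rcor1, the main CoREST scaffold, stood at 56.7, 61.1 and 55.2 UPM, and Rcor3, its relative, at 18.7, 17 and 16.6. The levels of the deacetylase genes were 68.8, 66.2 and 63.0 UPM for Hdac1 and 37.3, 32.0 and 32.9 for Hdac2. Hmg20b, the HMG box subunit, stood at 46.3, 38.0 and 39.8 UPM, and its ratio of the pool to the IL-18R- CD103- GFP- labelled library was 1.22 (1.06 to 1.41). None of the 5 that reached 20 UPM was called in any pair of libraries. Rcor3 stayed below 20 UPM in each library, so it could not be called. Of all measured genes 3.34% were called between the pool and the IL-18R- CD103- GFP- labelled library. Against the IL-18R- ST2+ library these 2 libraries gave 16.7% and 15%. For the 6 genes, ratios of the pool to the IL-18R- ST2+ library ran from 1.03 for Rcor1 to 1.16 for Hmg20b. For the 5 of them that reached 20 UPM, these ratios were below 1 when libraries were scaled by edgeR's TMM factors or by median of ratios, which move all log2 ratios of that pair by -0.28 and -0.32. No direction is therefore given for them.

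**Figure D3:**
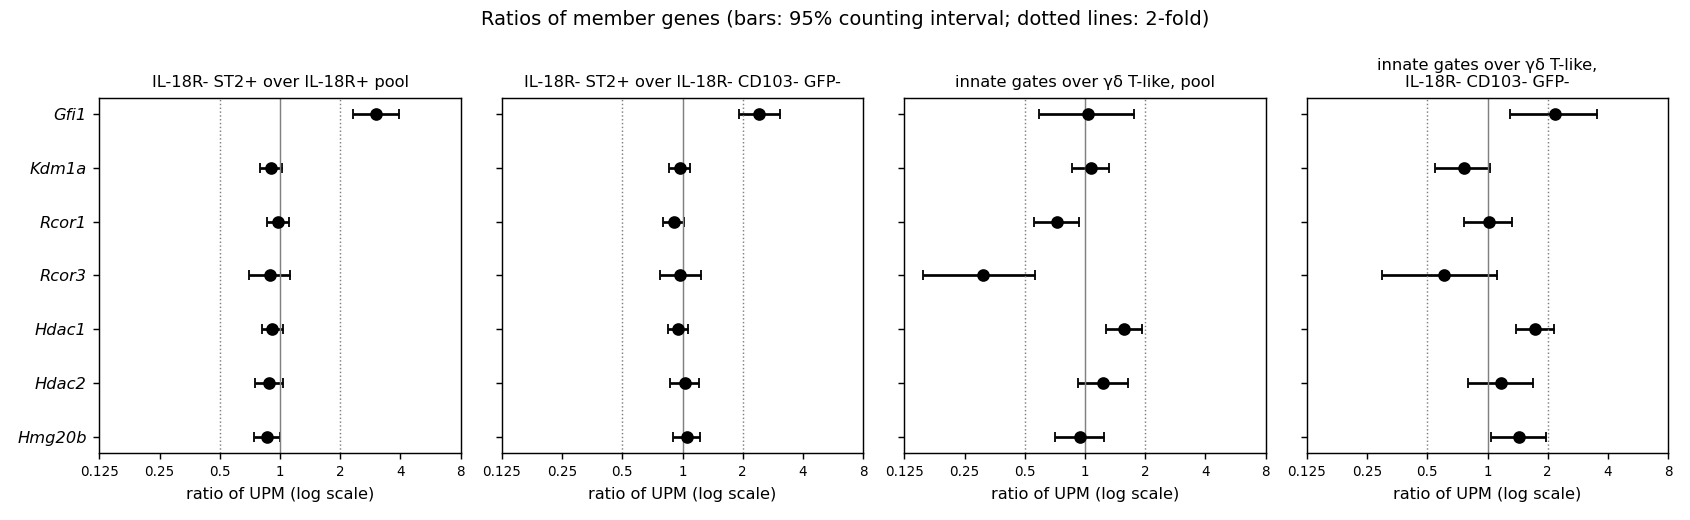
Ratios of UPM on a log scale for the 7 genes with UMIs, with 95% counting intervals and dotted lines at 2-fold. Gfi1 passes 2-fold in both comparisons of libraries with IL-18R- ST2+ (3.01 and 2.41), while Rcor3, Rcor1 and Hdac1 have intervals that leave out 1 between innate and γδ T-like cells of the pool (0.309, 0.723 and 1.56).

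Within the libraries the levels of the corepressor genes differed between marker-gated classes. Over the 8 sums of a class in a library with at least 50 cells, the highest level was 3.14 times the lowest for Rcor3, 2.54 for Rcor1, 2.40 for Hmg20b, 2.03 for Hdac1, 1.68 for Hdac2 and 1.54 for Kdm1a. Low counts widen this span, and the lowest sum of Rcor3 rests on 10 UMIs. For Gfi1 the lowest sum rests on 4 UMIs, so no span is given. The highest sums of Rcor3, Hdac2 and Hmg20b were those of the stromal marker gate. Kdm1a ranged from 51.4 to 79.2 UPM and Hdac2 from 31.1 to 52.3 UPM.

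Rcor3 was low in innate cells of the pool and, in the other library, in γδ T-like cells outside the type 17 gate. The innate gates of the pool together had 6.90 UPM of Rcor3 (12 UMIs in 255 cells) against 22.4 UPM in γδ T-like cells (92 UMIs in 853 cells), a ratio of 0.309 (0.154 to 0.565). It was the 1 member called there, where 6.05% of measured genes were called as higher in γδ T-like cells. The Cd3e-negative cells with Tcf7, Zbtb16 or Il18r1 alone gave 8.61 UPM (10 UMIs) and a ratio of 0.385 (0.179 to 0.741), called beside 13.6% of measured genes in either direction and 6.04% as higher in γδ T-like cells. The same comparison in the IL-18R- CD103- GFP- labelled library gave 11.5 against 18.9 UPM and a ratio of 0.606 (0.296 to 1.12), which was not called. ILC2-like cells of the IL-18R- ST2+ library had 15.2 UPM (104 UMIs in 1387 cells), between these levels.

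Among γδ T-like cells of the IL-18R- CD103- GFP- labelled library, Rcor3 stood at 24.2 UPM in the 1075 cells with type 17 transcripts (121 UMIs) and at 6.79 UPM in the 346 others (15 UMIs). The ratio was 3.57 (2.08 to 6.58), where 17.1% of measured genes were called in either direction and 12.8% as higher in type 17 cells. Rcor3 was the 1 member called. Median depth was 4474 UMIs in the type 17 cells and 6333 in the others. Thinned to 2000 UMIs a cell, 4.14% of type 17 cells (3.02% to 5.52%) and 1.45% of the others (0.471% to 3.34%) had an Rcor3 UMI. These intervals overlapped slightly, and the part of depth in the ratio of levels was not tested. With settings chosen after the values were seen, the ratio was 2.53 (1.66 to 3.99) with at least 4 type 17 UMIs and 3.50 (2.04 to 6.46) without cycling cells. Without Cd163l1 in the gate it was 1.70 (1.2 to 2.42), under the 2-fold of a call. In the pool the 2 levels were close. There 74 γδ T-like cells fell outside the type 17 gate and held 8 Rcor3 UMIs, 21.6 UPM against 22.4 in the 779 others, a ratio of 1.04 (0.504 to 2.49). No member was called there, where 9.48% of measured genes were, and the difference between the 2 libraries in this ratio was not tested.

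In the pool Rcor1 was lower in innate than in γδ T-like cells, though by less than 2-fold (46.6 against 64.4 UPM, ratio 0.723, 0.557 to 0.931). In the IL-18R- CD103- GFP- labelled library that ratio of Rcor1 was 1.02 (0.765 to 1.33). Between type 17 and other γδ T-like cells of this library Rcor1 went the same way as Rcor3, with a smaller ratio. It stood at 72.3 UPM in type 17 γδ T-like cells and 40.3 in the others, a ratio of 1.80 (1.42 to 2.29), under the 2-fold of a call. The αβ T-like cells of that library had 25.3 UPM (17 UMIs in 102 cells) against 62.5 in its γδ T-like cells, a ratio of γδ to αβ of 2.47 (1.53 to 4.28). It was the 1 member called in that comparison, beside 9.29% of measured genes in either direction and 6.94% as higher in γδ T-like cells. In the pool αβ T-like cells had 56.4 UPM and γδ T-like cells 64.4, a ratio of 1.14 (0.873 to 1.51). The αβ T-like cells of the 2 libraries differed in make-up: 112 of 210 in the pool passed the type 17 gate and 15 of 102 in the other library. In the pool, αβ T-like cells with type 17 transcripts had 63.7 UPM of Rcor1 and those without 47.4, a ratio of 1.34 (0.808 to 2.28). Hdac2 was called there (44.4 against 20.03 UPM, ratio 2.22, 1.08 to 4.90), from 11 UMIs on the lower side, beside 7.47% of measured genes in either direction and 4.64% as higher in type 17 cells. Kdm1a stood at 71.1 against 38.2 UPM, a ratio of 1.86 (1.09 to 3.27).

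**Figure D4:**
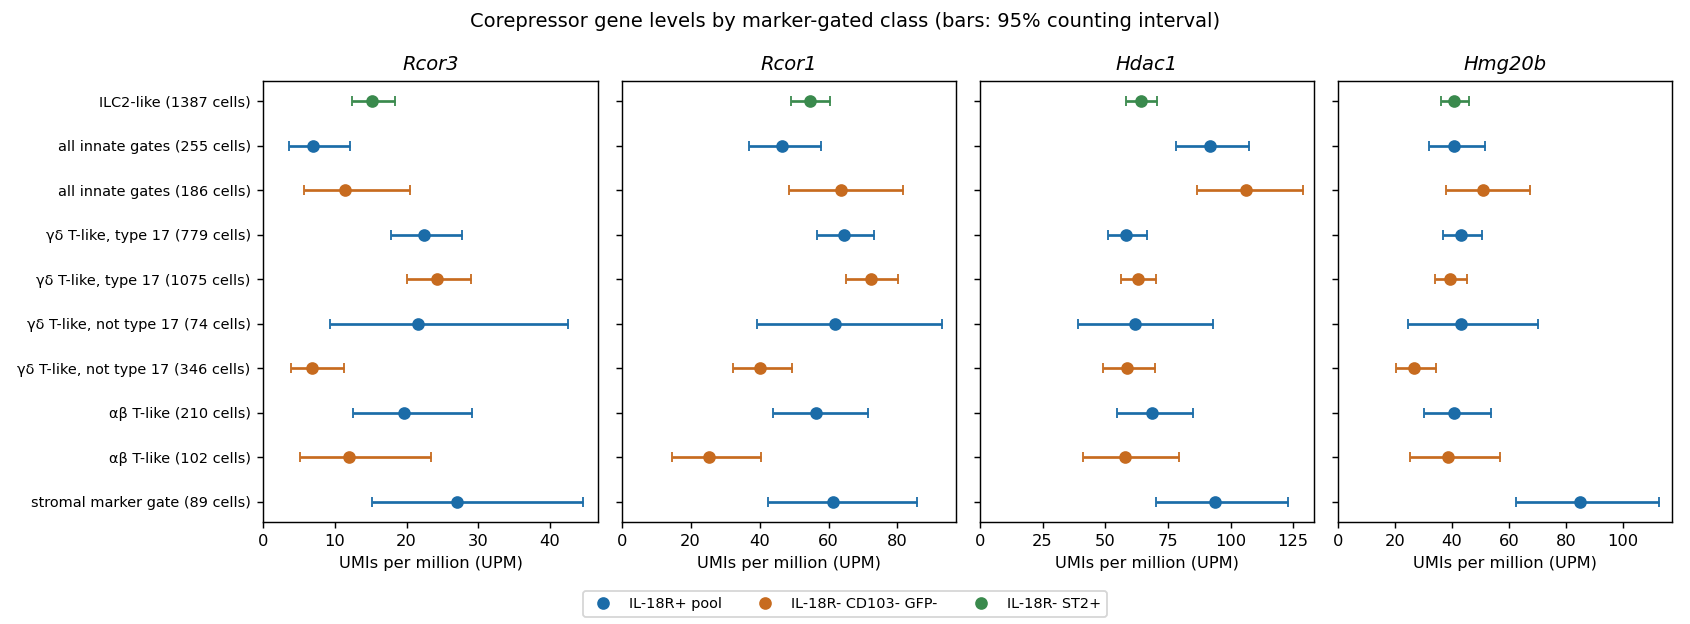
Level of Rcor3, Rcor1, Hdac1 and Hmg20b in UPM by marker-gated class and subset, coloured by library, with the number of cells in brackets and 95% counting intervals. Rcor3 is lowest in γδ T-like cells outside the type 17 gate of the IL-18R- CD103- GFP- labelled library (6.79 UPM) and in innate cells of the pool (6.90 UPM), and Hdac1 stands at 92.0 and 106 UPM in the innate gates of the 2 libraries, above all T-like sums shown.

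Hdac1 stood higher in innate cells than in γδ T-like cells of both libraries, short of 2-fold. The levels were 92.0 against 58.8 UPM in the pool, a ratio of 1.56 (1.27 to 1.92), and 106 against 61.6 UPM in the IL-18R- CD103- GFP- labelled library, a ratio of 1.72 (1.38 to 2.14). Cycling cells, set by Mki67 and 5 other cell division genes, had more Hdac1 than the rest in each library: 90.7 against 65.8 UPM, 129 against 64.7 and 159 against 62.6, in 35, 14 and 6 cells. Of the innate cells 21 of 255 and 3 of 186 were cycling, and of the γδ T-like cells 2 of 853 and 10 of 1421. Without cycling cells, a setting added after the values were seen, the ratios were 1.53 (1.22 to 1.90) and 1.74 (1.38 to 2.17). ILC2-like cells of the IL-18R- ST2+ library stood at 64.3 UPM, near the γδ levels. Among these, cells with Il5 or Il13 had 75.6 UPM and those without 57.2, a ratio of 1.32 (1.09 to 1.60).

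Among the 8 sums, Hmg20b and Hdac2 were highest in the stromal marker gate of the pool. Since that gate also held Il7r, Kit and Tcf7 (754, 350 and 310 UPM), with Gata3 at 168 and Ptprc, the pan-leukocyte gene, at 348 UPM, these levels cannot be placed in non-lymphoid cells. Hmg20b stood at 84.8 UPM (62.3 to 113) in those 89 cells and 43.2 in γδ T-like cells, a ratio of 1.96 (1.39 to 2.72), under 2-fold, and Hdac2 at 52.3 against 35.5 UPM, a ratio of 1.48 (0.955 to 2.21). Hdac1 stood at 93.8 UPM in them, a ratio of 1.60 (1.16 to 2.16). There, 29.6% of measured genes and 0 of the 6 members measured were called. The 8 markers of stroma, endothelium and epithelium, Sftpc included, summed to 664, 79.3 and 504 UPM in the 3 libraries. The order is the pool, the IL-18R- CD103- GFP- labelled library and the IL-18R- ST2+ library. In the IL-18R- CD103- GFP- labelled library, Hmg20b stood at 39.3 UPM in type 17 γδ T-like cells and 26.7 in the others, a ratio of 1.47 (1.09 to 2.00).

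The γδ T-like cells, the class that the pool and the IL-18R- CD103- GFP- labelled library share in number, differed little between these libraries in the genes followed. The ratios of pool to the other library ran from 0.954 for Hdac1 (0.812 to 1.12) to 1.22 for Hmg20b (1.00 to 1.48), with 1.11 for Gfi1 (0.753 to 1.61). None was called, where 1.81% of measured genes were. Among αβ T-like cells Rcor1 was called (56.4 against 25.3 UPM, ratio 2.23, 1.30 to 4.04), beside 14.2% of measured genes in either direction and 10.1% as higher in the pool. In the Cd3e-negative cells with Tcf7, Zbtb16 or Il18r1 none was called where 10.5% of measured genes were, with ratios from 0.649 for Rcor3 (0.231 to 1.89) to 1.54 for Kdm1a (1.02 to 2.40).

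Over the 8 sums, the 5 genes whose log2 level (with 10 UPM added) was most like that of Gfi1, of 7707 compared, were Cobll1 (Pearson r = 0.957), Dis3l2 (0.927), Vars (0.916), Asb2 (0.915) and Tmem273 (0.915). Cobll1 stood at 53.7 UPM in ILC2-like cells of the IL-18R- ST2+ library, 46.5 and 49.8 in the Cd3e-negative cells with Tcf7, Zbtb16 or Il18r1, and 22.9 to 34.8 elsewhere. The r of Gfi1 with the corepressor genes over these sums ran from -0.569 for Rcor3 to 0.206 for Hdac1, and the highest r between 2 corepressor genes was 0.926, for Hdac2 and Hmg20b. These are descriptions over 8 points, of which several share a library.

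Further genes of the machinery were not called between libraries. Of 16 other partners of LSD1, CoREST and GFI1, 10, 10 and 9 were measured in the 3 pairs, and 0 were called in any. Of all measured genes 3.34% were called between the pool and the IL-18R- CD103- GFP- labelled library. Against the IL-18R- ST2+ library these 2 libraries gave 16.7% and 15%. Among the partners, Ehmt2, a histone methyltransferase gene, stood at 40.0, 34.7 and 47.7 UPM in the pool, the IL-18R- CD103- GFP- labelled library and the IL-18R- ST2+ library. Hdac3, a deacetylase of other corepressors, stood at 24.0, 17.7 and 19.0 UPM. The 11 genes of NuRD, another complex built on HDAC1 and HDAC2, were all measured and none was called, beside the same shares. With 9 to 11 genes measured, these counts are a description of the lists. Gatad2a stood at 88.6, 92.9 and 55.7 UPM and Mta3 at 42.6, 35.1 and 28.0 UPM. The median log2 ratio of the pool to the IL-18R- ST2+ library was 0.12 for the partners and 0.02 for NuRD, beside 0.30 for all measured genes. None of 8 other SNAG domain genes, among them Snai1 and Ovol1, reached 20 UPM. Between innate, γδ and αβ cells or type 17 subsets, 4 ratios of partners were called. For γδ over αβ T-like cells in the pool these were Phf21a (2.15, 1.37 to 3.53) and Gse1 (2.19, 1.25 to 4.14), 2 of 10 measured partners, beside 5.62% of all measured genes in either direction and 2.98% as higher in γδ T-like cells. In the other library Ehmt2 was called for γδ over αβ (2.25, 1.24 to 4.56), 1 of 9 beside 9.29% and 6.94% as higher in γδ T-like cells. There Gse1 was also called for innate over γδ (2.06, 1.52 to 2.76), 1 of 9 beside 9.39% and 6.27% as higher in innate cells. Of the 11 NuRD genes, all measured, only Mbd2, which binds methylated DNA, was called for type 17 over other γδ T-like cells of the IL-18R- CD103- GFP- labelled library (120 against 52.9 UPM; 2.26, 1.85 to 2.78), beside 17.1% of all measured genes in either direction and 12.8% as higher in type 17 cells.

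Genes described as bound and repressed by GFI1 or GFI1B in blood cells differed in both directions. Of 17, 11 were measured between the pool and the IL-18R- ST2+ library, where 4 were higher in the pool, 1 was higher in the IL-18R- ST2+ library and 6 were not called. Of all measured genes 12.3% were called as higher in the pool there and 4.34% as higher in the IL-18R- ST2+ library. Between the IL-18R- CD103- GFP- labelled library and the IL-18R- ST2+ library 8 were measured, of which 1 was higher in the former and 2 in the latter, beside 9.61% and 5.4% of all measured genes. Between the pool and the IL-18R- CD103- GFP- labelled library 10 were measured, with 3 called as higher in the pool, beside 2.55% of all measured genes. With 8 to 11 genes measured, these counts are a description of the list. Csf1, a macrophage growth factor gene, stood at 1.89, 2.16 and 28.2 UPM, highest where Gfi1 was highest. Within the IL-18R- ST2+ library it stood at 27.7 UPM in ILC2-like cells and 37.7 in the 182 cells outside all gates. Socs3, a brake on cytokine signalling, stood at 120, 119 and 19.7 UPM, lowest where Gfi1 was highest. Irf8, a factor of myeloid and NK cells, stood at 29.7, 14.1 and 5.02 UPM, and 39.3% of its UMIs in the pool were in the 38 cells gated as ILC1 and NK-like. Spi1, the PU.1 gene of myeloid cells, stood at 22.9, 6.29 and 5.15 UPM, and 91.3% of its UMIs in the pool were in the 44 myeloid-like cells.

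Of 10 erythroid and platelet factors that work beside GFI1B, 3, 3 and 4 were measured. Myb, a factor of blood progenitors, stood at 11.8, 25.6 and 1.51 UPM, and had 0 UMIs in ILC2-like cells of the IL-18R- ST2+ library. In the IL-18R- CD103- GFP- labelled library it stood at 24.6 UPM in γδ T-like cells, 43.15 in αβ T-like cells and 42.7 in cells outside all gates. Its γδ T-like cells had 4.41 UPM with type 17 transcripts and 70.1 without. Zfpm1, which encodes the GATA partner FOG1, stood at 8.78, 14.1 and 29.9 UPM and at 30.6 UPM in ILC2-like cells of the IL-18R- ST2+ library. Like Gfi1, it was highest in the IL-18R- ST2+ library.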

How the data were processed

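Each deposited matrix holds raw counts, which are whole numbers of UMIs for every gene in every barcode and were not normalised, per the file headers. The authors used Cell Ranger 6.0.1 and build mm10, per the submitters' processing notes. Its settings, strand and annotation are not stated there.

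Barcodes under 500 genes or over 10% mitochondrial UMIs were left out. Groups were taken from the sample titles. UMIs were summed per library or class and divided by the sum of all UMIs (Python 3.11.15, numpy 2.4.6). Intervals are exact Poisson for levels, Clopper-Pearson for shares and exact conditional for ratios, at 95%. In calls, sums were raised to a floor of 3 UMIs. No ambient RNA was removed. Scrublet in scanpy 1.11.5 called 28 of 5164 cells doublets (0.542%), which were kept.

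Cells with at least 3 UMIs of B cell, myeloid or stromal markers were set apart first. Lyz2, Fcer1g and Sftpc were not counted for this. T-like cells needed at least 2 UMIs of Cd3d, Cd3e and Cd3g, with Cd3e among them, and were γδ or αβ by Trdc against Trac. Innate cells lacked Cd3e, had at most 1 Trdc or Trac UMI and at least 2 UMIs of a leading marker set. Of Cd3e-negative cells in the IL-18R- ST2+ library, 97 had 1 UMI of the ILC2 gate and 155 had 2. Gate thresholds were set with marker values in view. One marker of the type 17 and ILC3 sets was not used, and 1 item is not reported here. Of the feature identifiers, 32235 of 32285 were in GENCODE M21. Named genes were all members, up to 4 called genes of each list by size of ratio (2 if none was called), the 5 most like Gfi1 and the neighbours of Gfi1 and Gfi1b. The members, lists and comparisons were chosen with earlier results of these data known. Alternatives were TMM (edgeR 4.0.16 in R 4.3.3), median of ratios, equal weight per cell, all barcodes, no minimum level, a fold of 1.5, other gates, and leaving out cells of the B cell, myeloid and stromal marker gates, cycling cells or doublets.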

Additional observations from a re-analysis of the deposited data

How the results depend on the processing

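The counts of members called, and of Gfi1b, were the same in 44 recomputations and differed in 1, which was γδ against αβ T-like cells in the pool with no minimum level, where 1 member, Gfi1, was called and not 0. The log2 ratio of Gfi1 ran from -1.91 to -1.52 for the pool against the IL-18R- ST2+ library and from -1.44 to -1.25 for the IL-18R- CD103- GFP- labelled library against it, over 10 alternatives each. The number of all genes called moved by over 1.5 times with no minimum level (194 to 2375, 989 to 4134 and 859 to 3368 in the pairs of libraries in the order pool against IL-18R- CD103- GFP-, pool against IL-18R- ST2+ and IL-18R- CD103- GFP- against IL-18R- ST2+; 323 to 4863 and 526 to 6262 for γδ against αβ T-like cells) and at a fold of 1.5 (420, 2037, 1767, 903 and 1427). It fell to 101 in the first pair without cells of the B cell, myeloid and stromal marker gates, and reached 801 for γδ against αβ T-like cells of the IL-18R- CD103- GFP- labelled library when a second marker was needed. Of the calls between the pool and the IL-18R- ST2+ library 26% were higher in the latter, and 44.2% with TMM. For the IL-18R- CD103- GFP- labelled library these were 36% and 46.1%. No paired analysis was possible because each group is 1 library and the labels give no shared replicate numbers, and no replicate could be left out. Depth limits Gfi1 and Rcor3 most, since classes other than γδ T-like and IL-18R- ST2+ ILC2-like cells held at most 26 UMIs of either.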
